A study of Mus musculus with 2 samples.

Results

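The 83 genes described here encode the proteins of the cytosolic ribosome. They were chosen by symbol alone, as every listed gene named *Rpl* or *Rps* followed by a number, with an optional letter (a, x, l or y) and digit, plus *Rplp0*, *Rplp1*, *Rplp2* and *Rpsa*. Of the 32285 genes listed per library, 51 members belong to the large subunit and 32 to the small subunit. The symbol rule leaves out some genes of the same machinery, among them *Rpl36al*, *Fau* (which encodes RPS30) and *Rack1*.

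The samples were 2 single-cell libraries of mouse cerebral cortex at embryonic day 16.5 (E16.5), titled EomesDot and of WT genotype, which form a single group. Cells were released with papain and captured by the 10x 3' v3.1 chemistry, which counts 1 unique molecular identifier (UMI) for each captured RNA molecule. Levels are therefore numbers of tags, given as counts per 1000000 UMIs of the class or library (CPM), and need no correction for gene length. Neither treatment nor mutant was present, so all comparisons lie between cell classes within the same embryos. Nothing in the labels says how many embryos each library held.

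The deposited matrices contained 9049 barcodes and 46398156 UMIs for replicate 1, and 13556 barcodes and 64324236 UMIs for replicate 2. After filters on UMIs, mitochondrial share and doublets, 5534 and 9136 cells remained, with a median of 5493 and 4728 UMIs. The libraries shared 40 barcodes.

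Cells were placed in 15 classes from lists of marker genes, none of which is a ribosomal protein gene, and each class is called by its list. The summed levels of these lists, given next, are no independent check of the class names. The same lists placed the cells, which favours the list of the class itself. Leaving out the erythroid class and the erythroid and cycle lists, the list of the class itself had the highest summed level in both libraries in every class but one. The erythroid list, which includes globins, exceeded the own list in IPC-like cells of replicate 2 (2907 against 2389 CPM), and the cycle list did so in glial-fated progenitor-like cells of replicate 2 (2702 against 2650.0 CPM). The exception was the class gated on markers of the caudal ganglionic eminence (CGE), in which the list of the medial ganglionic eminence (MGE) summed to 10288 and 8033 CPM against 8770 and 7162 for its own list. That class is called CGE-list-gated and was not tested. A further 30.4% and 33.2% of the cells met no gate and stayed unassigned.

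The ribosome joins a small subunit, which reads the messenger RNA, to a large subunit, which forms the peptide bonds. Each subunit is a core of ribosomal RNA with many proteins, most of which are present in 1 copy per particle. Many ribosomal protein mRNAs start with a cytosine followed by a run of pyrimidines, the terminal oligopyrimidine (TOP) motif, through which their translation follows nutrient and growth signals. Proliferating progenitors build ribosomes to support growth, and several proteins have close paralogues that can take the place of their partner.

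The start sites of the members on which the results below turn are shown to make the pyrimidine run visible. They are 30-base windows with 10 bases before and 20 bases from the annotated start, taken from the RefSeq promoters of build GRCm38.p6. Capitals mark a run of at least 5 pyrimidines (C or T) that opens with C within 5 bases of the start. The search used the strand that reads like the mRNA. *Rps27l* and *Rpl22* have a second annotated start, which is not shown.
Rps27l, chr9:66946076-66946105, plus strand: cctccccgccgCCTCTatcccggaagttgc
Rps27, chr3:90213629-90213658, minus strand: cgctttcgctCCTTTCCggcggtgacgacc
Rpl22l1, chr3:28805498-28805527, plus strand: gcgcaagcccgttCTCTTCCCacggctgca
Rpl22, chr4:152325716-152325745, plus strand: cctgggaaaagcaatagctggccgatcgtt
Rpl38, chr11:114668570-114668599, plus strand: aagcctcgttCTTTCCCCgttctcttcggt
Rpl12, chr2:32961702-32961731, plus strand: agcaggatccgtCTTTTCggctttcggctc
Rps12, chr10:23787190-23787219, minus strand: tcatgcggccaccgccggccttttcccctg

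An entry was found for 63 of the 83 members. A run that began exactly at the start base was present in 20.6% of these members and in 3.01% of the 27025 genes with an entry. Within 5 bases of the start, 29 members (46.0%) and 21.2% of all genes had one. In the windows above, *Rps27* and *Rpl38* carry the run at the start base itself, and those of *Rps27l*, *Rpl12* and *Rpl22l1* open a few bases downstream. Those of *Rpl22* and *Rps12* hold none that opens within 5 bases of the start, which says nothing about starts other than the annotated one.

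Most members were among the abundant mRNAs of these cells, and 80 of the 83 passed the filter on low counts. *Rps29*, *Rpl13*, *Rps24* and *Rpl23* were among the members with the highest levels. *Rps29*, of the small subunit, reached 2731 CPM in replicate 1 and 3413 in replicate 2, or 3072 ± 482 (SD, n = 2). *Rpl13* had 2784 ± 189, *Rps24* 2429 ± 145 and *Rpl23* 2359 ± 113 CPM. The levels of *Rps24* and *Rpl23* differed by less than their spread between libraries.

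The lowest levels belonged to paralogue copies. *Rps27l*, a copy of *Rps27*, had 196 ± 7.73 CPM (SD, n = 2), and *Rpl7l1* had 64.9 ± 0.49. *Rpl39l*, a copy of *Rpl39* known from the testis, had 6 and 3 UMIs in all kept cells. *Rpl3l*, the copy of *Rpl3* known from striated muscle, had 1 and 3 UMIs. *Rpl10l*, known from spermatogenesis, had 0 UMIs in both libraries, which allows up to 0.0866 and 0.0610 CPM from counting error alone. *Rps4x*, the X-linked gene of RPS4, was an abundant member at 1578 ± 140 CPM.

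The 83 members lie on 19 chromosomes, with 14 of them on chromosome 7. Several have near-identical copies elsewhere in the genome, so reads could be lost or split between loci. Over the last 400 bases of the transcript, 31 members matched another listed gene at 98% identity or more across at least 90 bases. The annotated copy Gm10076 held 17.5% as many UMIs as its parent *Rpl41*, and Gm10260 held 19.4% as many as *Rps18*. For *Rps27* the copy Rps27rt held 1.39%. *Rpl7l1* matched the unrelated gene *Cd9* over 106 bases, and *Cd9* held 80.7% as many UMIs. How the counting software shared reads among these loci is not given in the sources used here.

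Together the members took 11.5% of all UMIs in replicate 1 and 12.7% in replicate 2, and this share differed between classes by several times. Its mean over both libraries was highest in fibroblast-like, microglia-like and endothelial-like cells and lowest in globin-filled erythroid-like cells. Fibroblast-like cells had a share of 22.6% and 21.4%, microglia-like cells 22.0% and 20.3%, and endothelial-like cells 20.5% and 18.2%. Mural-like cells had 17.2% and 17.7%. The mural-like and endothelial-like values overlapped with the IPC-like ones below.

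Within the excitatory lineage, the share was highest in the intermediate stage. Radial glial cell (RGC)-like cells, the stem cells of the ventricular zone, had 14.4% and 14.8%. Intermediate progenitor cell (IPC)-like cells, the transit-amplifying daughters of RGCs, had 17.0% and 18.2%. Newborn neuron-like cells had 14.2% and 14.9%, upper-layer neuron-like cells 10.5% and 11.5%, and deep-layer neuron-like cells 8.84% and 10.7%. The IPC-like values lay above those of the other excitatory classes in both libraries, whereas the RGC-like and newborn values overlapped. The medians over single cells did not, at 12.5% and 12.6% in RGC-like and 14.02% and 14.8% in newborn neuron-like cells.

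Among inhibitory neurons, MGE interneuron-like cells had 8.92% and 10.97%, and CGE-list-gated cells 9.52% and 11.5%. Striatal projection neuron-like cells had 10.97% and 13.3%. Across libraries the MGE, CGE-list-gated, upper-layer and deep-layer ranges overlapped, but within each library the order was the same, from deep-layer over MGE and CGE-list-gated to upper-layer and then striatal cells. Cajal-Retzius-like cells, the early-born neurons of the marginal zone, gave 7.16% and 11.5% from 23 and 33 cells, so this class could not be placed in the order. Glial-fated progenitor-like cells had 15.3% and 16.5%, from 28 and 22 cells.

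Erythroid-like cells had the lowest share, 4.13% and 4.30%. Globin mRNAs took 79.5% and 79.3% of their UMIs. With mitochondrial and globin UMIs left out of the denominator, their share was 21.3% and 22.0%, close to that of microglia-like cells (23.1% and 21.2%). No test was run on shares, of which each class had 1 value per library. Replicate 2 had the higher share in 12 of the 15 classes and the lower one in 3, the endothelial-like, fibroblast-like and microglia-like cells. The 95% Wilson intervals of the pooled shares, which cover counting error only, were narrow by comparison, such as 10.4% to 10.5% for upper-layer neuron-like and 21.7% to 22.2% for microglia-like cells of replicate 1.

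**Figure D1:**
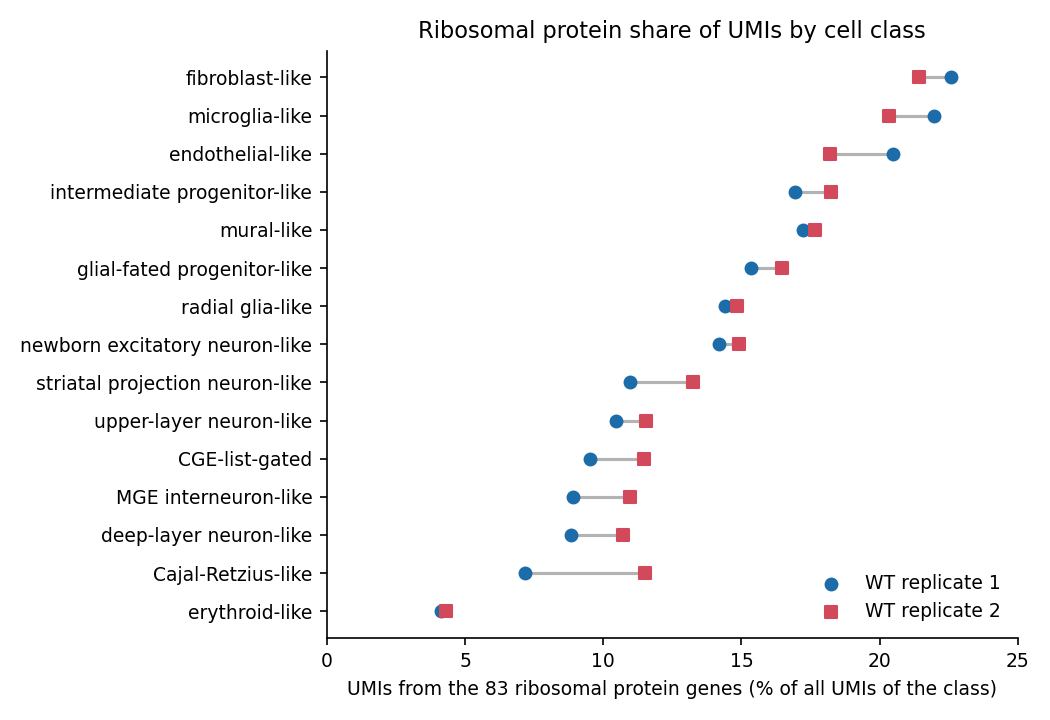
Share of UMIs from the 83 ribosomal protein genes (horizontal axis, percent of all UMIs of the class) for the 15 classes, ordered by the mean of both libraries. Blue circles are WT replicate 1, red squares WT replicate 2, and grey bars join them; IPC-like cells lie at 17.0% and 18.2%, to the right of upper-layer neuron-like cells at 10.5% and 11.5%.

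Other measures moved with these shares. *Malat1*, a non-coding RNA that stays in the nucleus, took a median of 0.600% and 0.848% of the UMIs of endothelial-like cells and 0.422% and 0.804% of those of microglia-like cells. In the progenitors the median was 1.12% and 1.27% (RGC-like) and 0.835% and 0.934% (IPC-like). In neurons it was 1.34% and 1.64% (newborn), 1.44% and 1.66% (upper-layer), 2.08% and 2.11% (deep-layer), 2.51% and 2.49% (MGE) and 2.64% and 2.50% (striatal). The upper-layer, deep-layer, MGE and striatal classes had more *Malat1* and a smaller ribosomal protein share than the RGC-like and IPC-like cells, while newborn neuron-like cells had more *Malat1* than RGC-like cells at an overlapping share. The part of *Malat1* in these shares was not tested. Among cells with under 1.5% *Malat1*, the mean share was 14.1 ± 1.25% (SD, n = 2) for the MGE interneuron-like class and 12.9 ± 1.21% in upper-layer neuron-like cells, so that the MGE class was the higher, in each library as in the mean. The striatal class then had 18.4 ± 0.0508%, from 55 cells.

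Individual cells of a class did not share a single level. The upper-layer neuron-like cells formed 2 peaks in both libraries, one in the bin from 5 to 6% (replicate 1) or 6 to 7% (replicate 2) and another from 12 to 13% or 13 to 14%. Under a share of 10% lay 53.2% and 51.5% of them. The same was true of 77.8% and 58.0% of the MGE interneuron-like cells and of 79.2% and 64.6% of the deep-layer neuron-like cells. It held for 26.2% and 17.9% of the IPC-like cells, and for 3.03% and 6.06% of the fibroblast-like cells.

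**Figure D2:**
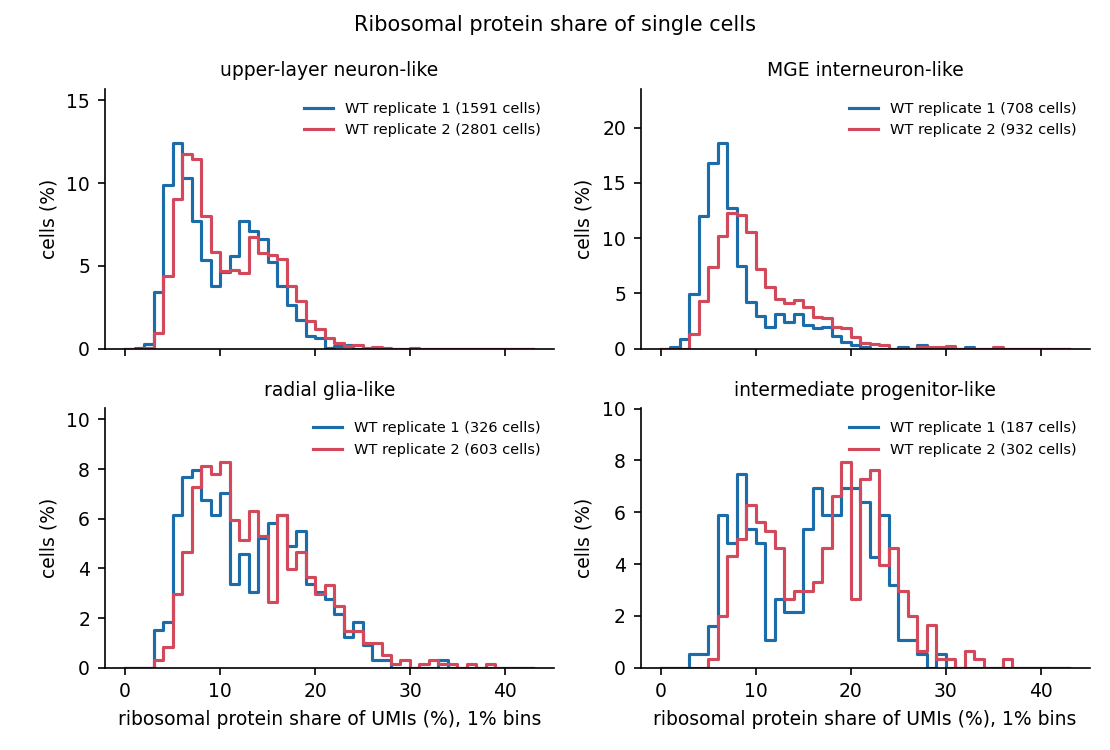
Distribution of the ribosomal protein share over single cells of 4 classes (horizontal axis, percent of the UMIs of a cell in 1% bins; vertical axis, percent of the cells of the class). Blue is WT replicate 1 and red WT replicate 2; upper-layer neuron-like cells show a peak between 5 and 7% and another between 12 and 14%, and MGE interneuron-like cells lie mostly under 10%.

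Upper-layer neuron-like cells with a share under 9% had more mitochondrial and *Malat1* UMIs than those from 12 to 16%. Upper-layer neuron-like cells with a share under 6% had a median of 6.88% and 6.27% mitochondrial and 1.80% and 1.93% *Malat1* UMIs. From 6 to 9%, the stratum that holds the lower peak of replicate 2, the medians were 7.47% and 6.93% mitochondrial and 1.62% and 2.02% *Malat1* UMIs. Those with a share from 12 to 16% had 4.18% and 3.95% mitochondrial and 1.17% and 1.33% *Malat1* UMIs. The mitochondrial medians did not fall steadily, at 3.73% and 4.98% from 9 to 12% and 4.58% and 4.39% above 16%. Median depth was 6152 and 5573.5 UMIs under 6%, 4953 and 4135 from 6 to 9%, and 8309.5 and 7448.5 from 12 to 16%. The part of these measures in the peaks was not tested.

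To ask which members differed between classes, UMIs were summed per library and class and tested with edgeR, a count model with the library as a block. A member is called at a Benjamini-Hochberg (BH) adjusted p under 0.05 over all genes tested. The spread came from 2 libraries, so a p-value measures only the spread between these samples, which may be technical. The comparisons with upper-layer neuron-like cells share the sums of that class. The choice of scaling shifted all genes of a comparison together. In the comparison of RGC-like with upper-layer neuron-like cells the median of all genes was -0.17 with the TMM factors used here and 0.08 with library totals alone.

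In RGC-like cells, 9 of 80 members were higher than in upper-layer neuron-like cells and 0 were lower. Of all 15668 genes, 56.2% were called in this comparison, and 24.5% were called higher. The median log2 difference of the members was 0.15, beside -0.17 for all genes. The called members were *Rpl22l1*, *Rps27l*, *Rps12*, *Rpl41*, *Rplp1*, *Rps2*, *Rpl12*, *Rpl14* and *Rpl7l1*, in order of size, of which the last 5 except *Rpl7l1* were named after their values were seen.

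*Rpl22l1*, the paralogue of *Rpl22*, had 752 and 699 CPM in RGC-like cells and 310 and 324 in upper-layer neuron-like cells. Both progenitor values lay above both neuronal values, and the log2 difference was 0.95 ± 0.14 (SE, adjusted p = 7.49e-08, edgeR with BH). *Rps27l* had 348 and 340 against 148 and 160 CPM, again without overlap, a difference of 0.91 ± 0.12 (adjusted p = 1.26e-10, edgeR). *Rps12* of the small subunit had 2412 and 2446 against 1305 and 1551 CPM, a difference of 0.52 ± 0.20 (adjusted p = 0.0176, edgeR). *Rpl41*, which encodes a very short basic peptide of the large subunit, differed by 0.48 ± 0.19 (adjusted p = 0.0242, edgeR), with 3002 and 3134 against 1710 and 1994 CPM. The largest differences were those of the paralogue copies *Rpl22l1* and *Rps27l*. The number of called members depended on scaling and on the cells kept: it was 44 with library totals, where 55.0% of all genes were called, and 56 among cells with under 5% mitochondrial UMIs, where 56.3% were. Without a filter on low counts it fell, as listed below with the other alternatives.

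In IPC-like cells, 46 of 80 members were higher than in upper-layer neuron-like cells and 0 were lower, where 42.8% of all genes were called and 16.7% called higher. The median difference of the members was 0.46, beside -0.21 for all genes. Of the large subunit, 24 of 48 tested members were higher, and of the small subunit 22 of 32. *Rps27l* differed most, with 368 and 396 against 148 and 160 CPM, a log2 difference of 1.09 ± 0.12 (SE, adjusted p = 9.66e-13, edgeR). *Rpl22l1* followed at 0.80 ± 0.14 (adjusted p = 5.12e-06, edgeR), with 623 and 664 CPM in IPC-like cells. *Rps18*, which lies at the head of the small subunit, differed by 0.72 ± 0.19 (adjusted p = 0.0013, edgeR), with 1719 and 1838 against 863 and 987 CPM. *Rps12* differed by 0.70 ± 0.20 (adjusted p = 0.00207, edgeR), with 2597 and 2819 CPM in IPC-like cells. For each of these members, both progenitor values lay above both neuronal ones. Without a filter on low counts 21 members were called (26.8% of all genes), and with library totals 77 (42.2%).

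Between the progenitors themselves, 0 of 80 members were called by edgeR, where 23.2% of all genes were. At an unadjusted p under 0.05, 14 members passed, and DESeq2 called 2. The median difference, RGC-like minus IPC-like, was -0.29, beside 0.08 for all genes. Members thus leaned towards the IPC-like cells without any passing the edgeR test, although 45 did among cells with under 5% mitochondrial UMIs, 44 lower and 1 higher in RGC-like cells (24.1% of all genes), and 23 after thinning each cell to 1500 UMIs (13.7%).

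With the cells kept here, few members differed among neurons. In deep-layer neuron-like cells, 2 of 80 members were lower than in upper-layer neuron-like cells, where 16.9% of all genes were called, and the medians were -0.17 for members and -0.01 for all genes. From the CPM of 1 library alone the median of the members was -0.24 (replicate 1) or -0.097 (replicate 2). The members called lower were paralogue copies. *Rps27l* had 91.9 and 114 against 148 and 160 CPM (log2 difference -0.58 ± 0.14, SE, adjusted p = 0.000795, edgeR). This call was lost after thinning to 1500 UMIs (-0.45, adjusted p = 0.139, edgeR), scaled to the ribosomal protein total (-0.41, adjusted p = 0.127, edgeR) and among cells with under 1.5% *Malat1* (-0.41, adjusted p = 0.163, edgeR), where the median of the members was 0.079. *Rpl22l1* had 201 and 261 against 310 and 324 (-0.46 ± 0.15, adjusted p = 0.0235, edgeR), a call that was lost with DESeq2 (adjusted p = 0.269) and with edgeR under other settings. These were RLE size factors (adjusted p = 0.0788), no library block (0.104), the ribosomal protein total as scale (0.345), no doublets removed (0.0766), at least 4 markers per cell (0.0917) and under 1.5% *Malat1* (0.162).

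In MGE interneuron-like cells, 1 of 80 members was lower, where 29.5% of all genes were called, with medians of -0.21 for members and 0.00 for all genes. From the CPM of 1 library alone the members' median was -0.23 (replicate 1) or -0.083 (replicate 2). Among cells with under 5% mitochondrial UMIs, 33 members were lower, where 25.4% of all genes were called. Other cuts went the other way in the mean ribosomal protein share of MGE and upper-layer cells. It was 12.2% and 11.6% with at least 5000 UMIs, and 14.1% and 12.9% under 1.5% *Malat1*. *Rps2*, which lines the mRNA entry channel of the small subunit, had 415 and 539 against 638 and 698 CPM in upper-layer neuron-like cells (log2 difference -0.54 ± 0.18, SE, adjusted p = 0.0177, edgeR). The call was lost with the ribosomal protein total as scale (-0.34, adjusted p = 0.0916, edgeR) and, by less than rounding shows, among cells with under 1.5% *Malat1* (-0.34). In striatal projection neuron-like cells, 1 of 80 members was lower, where 13.8% of all genes were called, with medians of 0.01 and -0.14. The member was *Rps27l*, with 107 and 106 against 148 and 160 CPM (-0.64 ± 0.17, adjusted p = 0.00351, edgeR). It was not called after thinning to 1500 UMIs (-0.26, adjusted p = 0.659, edgeR) or among cells with under 1.5% *Malat1* (-0.42, adjusted p = 0.315, edgeR), where the median of the members was 0.24. The deep-layer and striatal values of *Rps27l* lay below both upper-layer values.

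Endothelial-like and microglia-like cells were the non-neural classes tested. In endothelial-like cells, which line blood vessels, 68 of 80 members were higher than in upper-layer neuron-like cells and 0 lower, where 45.3% of all genes were called and 18.9% called higher. The median difference was 0.66, beside -0.37 for all genes. *Rpl38*, a small protein at the surface of the large subunit, had 5847 and 5901 against 1576 and 1939 CPM, a log2 difference of 1.63 ± 0.19 (SE, adjusted p = 8.21e-12, edgeR). *Rps20* had 3848 and 3075 against 1275 and 1433 CPM (1.24 ± 0.20, adjusted p = 1.15e-07, edgeR). *Rpl28* had 3890 and 3548 against 1507 and 1618 (1.13 ± 0.19, adjusted p = 6.34e-07, edgeR). *Rps27l* had 417 and 323 against 148 and 160 (1.12 ± 0.14, adjusted p = 1.43e-10, edgeR). None of these 4 members overlapped between the classes.

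In microglia-like cells, the resident macrophages of the brain, 70 of 80 members were higher and 0 lower, where 36.3% of all genes were called and 15.0% called higher. The median difference was 0.77, beside -0.62 for all genes. *Rps29*, a small zinc-binding protein of the small subunit, had 9644 and 10620 against 2331 and 2875 CPM, a log2 difference of 1.86 ± 0.20 (SE, adjusted p = 2.66e-13, edgeR). *Rps12* had 5481 and 4315 against 1305 and 1551 CPM (1.68 ± 0.20, adjusted p = 4.64e-11, edgeR). *Rpl12*, a protein of the stalk base where elongation factors bind, had 2089 and 1976 against 697 and 745 (1.39 ± 0.19, adjusted p = 5.36e-09, edgeR). *Rpl35a* had 3377 and 3416 against 1203 and 1309 (1.33 ± 0.19, adjusted p = 8.89e-09, edgeR). The libraries held 25 and 51 microglia-like and 39 and 82 endothelial-like cells. Of the small subunit, 31 of 32 members were higher in microglia-like cells, and of the large subunit 39 of 48.

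**Figure D3:**
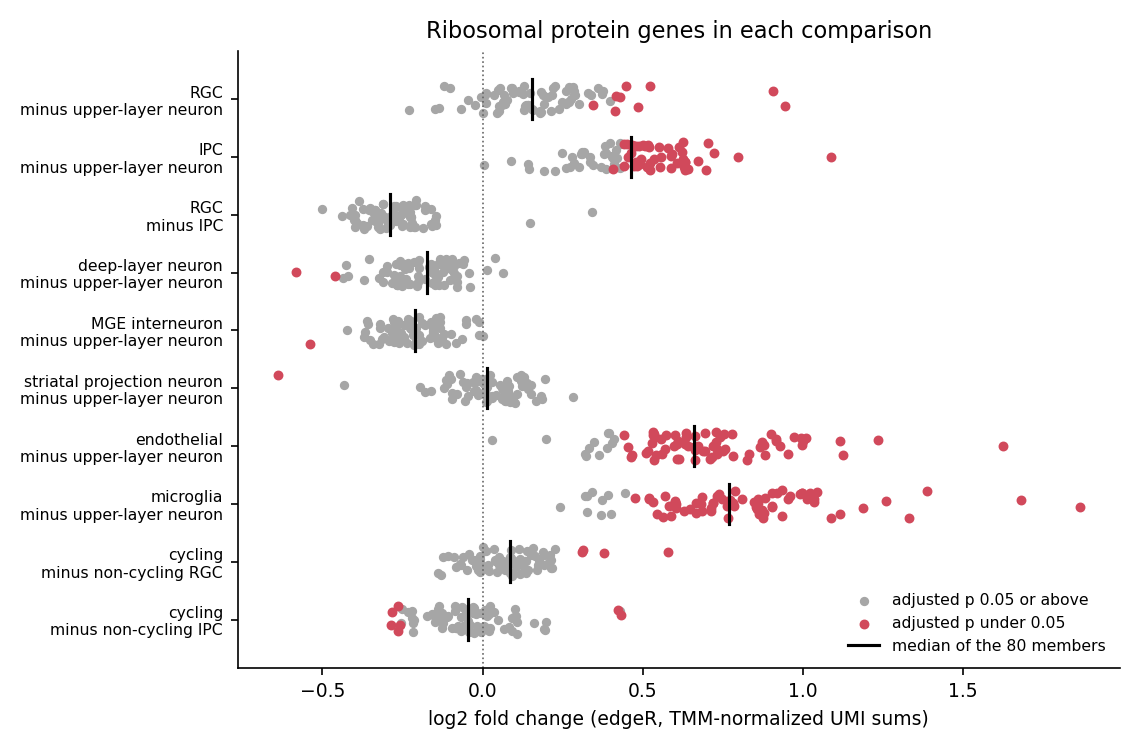
Log2 fold change of each of the 80 tested members (horizontal axis, edgeR on TMM-normalized UMI sums, 2 libraries per class) in 10 comparisons (rows). Red points are called at an adjusted p under 0.05, grey points are not, and black bars are the medians; the medians are 0.46 for IPC minus upper-layer neurons, 0.66 for endothelial and 0.77 for microglia minus upper-layer neurons.

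Large-subunit UMIs exceeded small-subunit UMIs in every class and library, at a ratio of 1.29 and 1.27 in upper-layer neuron-like cells. The ratio was lowest in microglia-like cells, at 1.15 and 1.16, and was 1.34 and 1.30 in deep-layer neuron-like cells. These ratios are sums over members, not particles, and were not tested.

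To ask which members departed from the rest of the ribosomal proteins, the same model was scaled so that the summed members were equal in all classes, an alternative added after the data had been seen. Then 7 members were higher and 7 lower in endothelial-like cells, against the upper-layer class, where 57.4% of all genes were called. In microglia-like cells 6 were higher and 10 lower, with 50.7% of all genes called. Members named in the rest of this paragraph that were not called above were chosen after their values were seen. *Rpl38* took 2.85% and 3.24% of all ribosomal protein UMIs in endothelial-like cells and 1.51% and 1.68% in upper-layer neuron-like cells, a log2 difference of 0.93 ± 0.14 within the ribosomal protein total (SE, adjusted p = 1.35e-07, edgeR). In microglia-like cells it took 1.05% and 1.25%, a difference of -0.46 ± 0.14 (adjusted p = 0.00492, edgeR). Its part of that total was thus larger than in the neurons in endothelial-like cells and smaller in microglia-like cells. This compares parts of the total, not levels. *Rps29* took 4.39% and 5.22% in microglia-like cells against 2.23% and 2.49% in upper-layer neuron-like cells (1.02 ± 0.13, adjusted p = 6.46e-09, edgeR). *Rps12* took 2.50% and 2.12% there against 1.25% and 1.34% (0.83 ± 0.14, adjusted p = 2.27e-06, edgeR). In the other direction, *Rpl15* took 1.03% and 1.08% in microglia-like cells against 1.64% and 1.56% (-0.59 ± 0.14, adjusted p = 0.000324, edgeR), and *Rpl7a* took 0.592% and 0.591% in endothelial-like cells against 0.955% and 0.915% (-0.66 ± 0.14, adjusted p = 0.000103, edgeR).

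On the same scale, 5 members were called between RGC-like and upper-layer neuron-like cells, where 51.9% of all genes were, and 2 between IPC-like and upper-layer neuron-like cells, where 52.7% were. *Rps27l* was higher in both (0.74 ± 0.16 and 0.63 ± 0.16, SE, adjusted p = 0.000144 and 0.00131, edgeR), and *Rpl22l1* was higher in RGC-like cells (0.78 ± 0.17, adjusted p = 0.000124, edgeR). *Rps7*, chosen after its value was seen, was lower in both (-0.39 ± 0.13 and -0.37 ± 0.13, adjusted p = 0.0106 and 0.0179, edgeR). The counts were 1 of 80 for the RGC-like minus IPC-like comparison (22.7% of all genes), 0 in deep-layer neuron-like cells (12.4%), 0 in MGE interneuron-like cells (22.0%) and 1 in striatal projection neuron-like cells (10.4%), where the last 3 classes were set against upper-layer neuron-like cells.

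**Figure D4:**
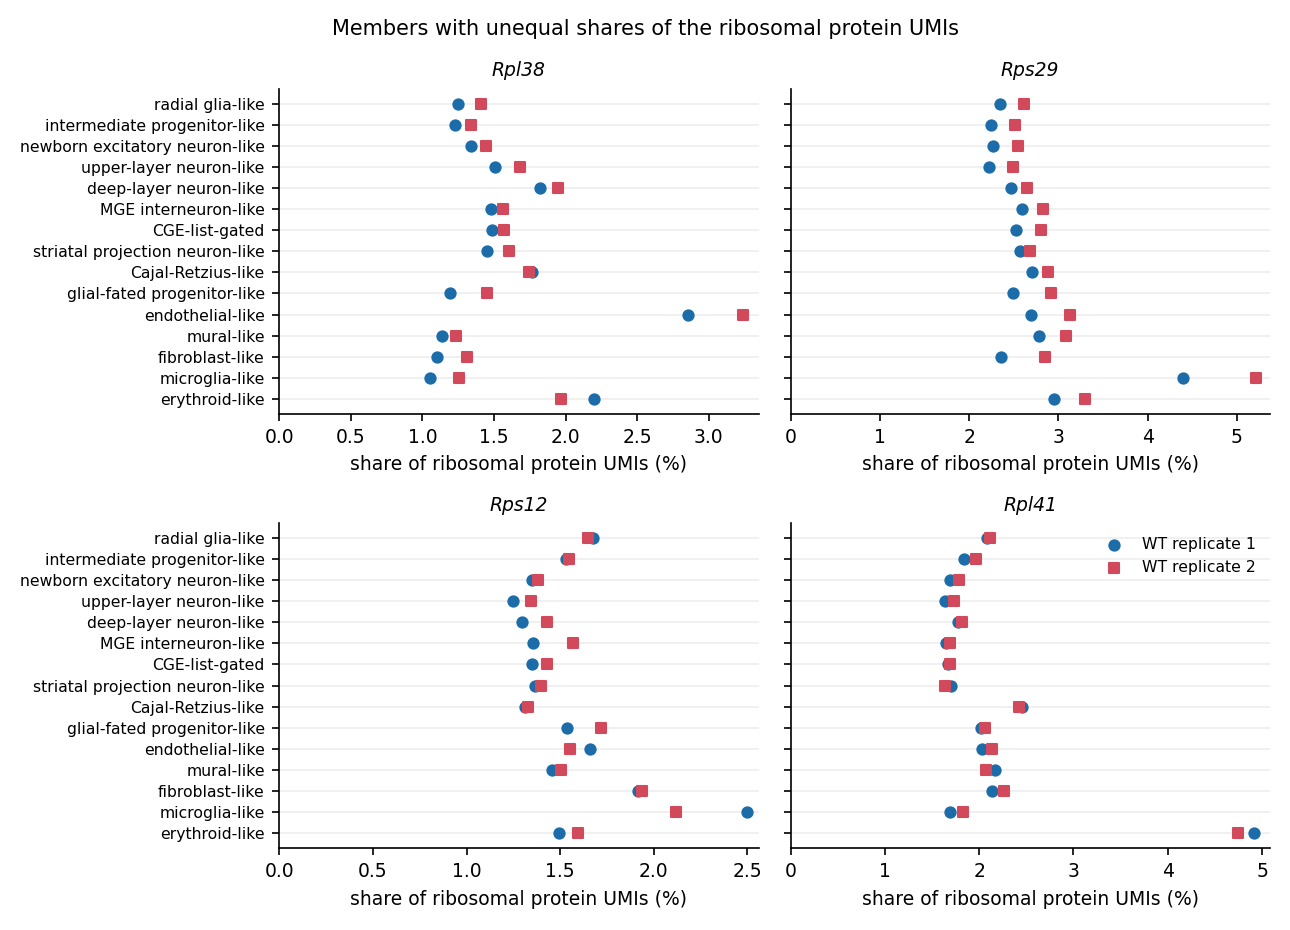
Share of the ribosomal protein UMIs taken by *Rpl38*, *Rps29*, *Rps12* and *Rpl41* (horizontal axes, percent) in the 15 classes (rows). Blue circles are WT replicate 1 and red squares WT replicate 2; *Rpl38* stands apart in endothelial-like cells (2.85% and 3.24%), *Rps29* in microglia-like cells (4.39% and 5.22%) and *Rpl41* in erythroid-like cells (4.92% and 4.75%).

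Across the 15 classes, the members that varied most in their share of the ribosomal protein total were paralogue copies. The SD of the log2 share was 0.52 for *Rps27l*, 0.52 for *Rpl7l1* and 0.50 for *Rpl22l1*, followed by *Rpl41* (0.39), *Rpl38* (0.37) and *Rps2* (0.32), and it was smallest for *Rps10* (0.0708). For *Rpl7l1* this included classes with few UMIs, such as 14 and 11 in Cajal-Retzius-like and 6 and 4 in erythroid-like cells. *Rps27l* had 14 and 37 in erythroid-like cells and *Rpl22l1* 42 and 66. These copies were also the tested members with the lowest levels, and their spread was not separated from counting error. The median over the 80 members was 0.158 in replicate 1 and 0.144 in replicate 2. The class with the highest share was the same in both libraries for 37 members, and that with the lowest share for 41. *Rpl41* had its highest share in erythroid-like cells, where it took 4.92% and 4.75% of ribosomal protein UMIs against 1.64% and 1.73% in upper-layer neuron-like cells.

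Copies and partners are set side by side here. *Rps27l* had 498 and 636 CPM in glial-fated progenitor-like cells, 368 and 396 in IPC-like, 348 and 340 in RGC-like, 231 and 254 in newborn neuron-like, 148 and 160 in upper-layer, 129 and 134 in MGE, 107 and 106 in striatal and 91.9 and 114 in deep-layer neuron-like cells. Of these, the striatal and deep-layer values overlapped, while IPC-like and RGC-like values were separate but close. Its partner *Rps27* had 1502 and 1639 CPM in RGC-like cells against 1212 and 1368 in upper-layer neuron-like cells, without overlap. With TMM factors its log2 difference was 0.04 ± 0.19 (SE) and it was not called (adjusted p = 0.892, edgeR), while the log2 ratios of CPM within the libraries were 0.31 and 0.26. *Rps27l* thus amounted to 23.1% and 20.7% of *Rps27* UMIs in RGC-like cells, 20.8% and 20.2% in IPC-like cells, 12.2% and 11.7% in upper-layer and 7.41% and 6.13% in striatal projection neuron-like cells. The largest ratio was in glial-fated progenitor-like cells, at 31.5% and 43.1%, from 100 and 85 *Rps27l* UMIs.

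*Rpl22l1* had its highest levels in fibroblast-like cells, at 1199 and 1106 CPM, while the libraries differed widely in Cajal-Retzius-like cells at 399 and 817. Its ratio to *Rpl22* was 99.8% and 90.5% in fibroblast-like, 75.9% and 69.4% in RGC-like, 50.8% and 54.9% in IPC-like, 47.2% and 45.8% in upper-layer and 34.7% and 32.5% in CGE-list-gated cells. In Cajal-Retzius-like cells it was 95.2% and 136%, from 60 and 256 *Rpl22l1* UMIs. *Rpl22* itself had 992 and 1007 CPM in RGC-like against 658 and 707 in upper-layer neuron-like cells (log2 difference 0.30 ± 0.18, SE, adjusted p = 0.146, edgeR), and it was higher in IPC-like cells (0.61 ± 0.18, adjusted p = 0.00348, edgeR). *Rpl7l1* was the scarcest of the copies that were tested, at 94.6 and 93.4 CPM in RGC-like and 61.0 and 63.3 in upper-layer neuron-like cells (0.35 ± 0.13, adjusted p = 0.0145, edgeR). It amounted to 6.82% and 6.92% of *Rpl7* in RGC-like and to 5.44% and 5.43% in upper-layer neuron-like cells. *Rpl7* differed between these classes by 0.01 ± 0.18 (adjusted p = 0.965, edgeR), and *Rpl10* by -0.15 ± 0.18 (adjusted p = 0.505, edgeR). *Rpl3* and *Rpl39* were not called there either, at 0.23 ± 0.19 and 0.14 ± 0.19 (adjusted p = 0.324 and 0.552, edgeR).

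**Figure D5:**
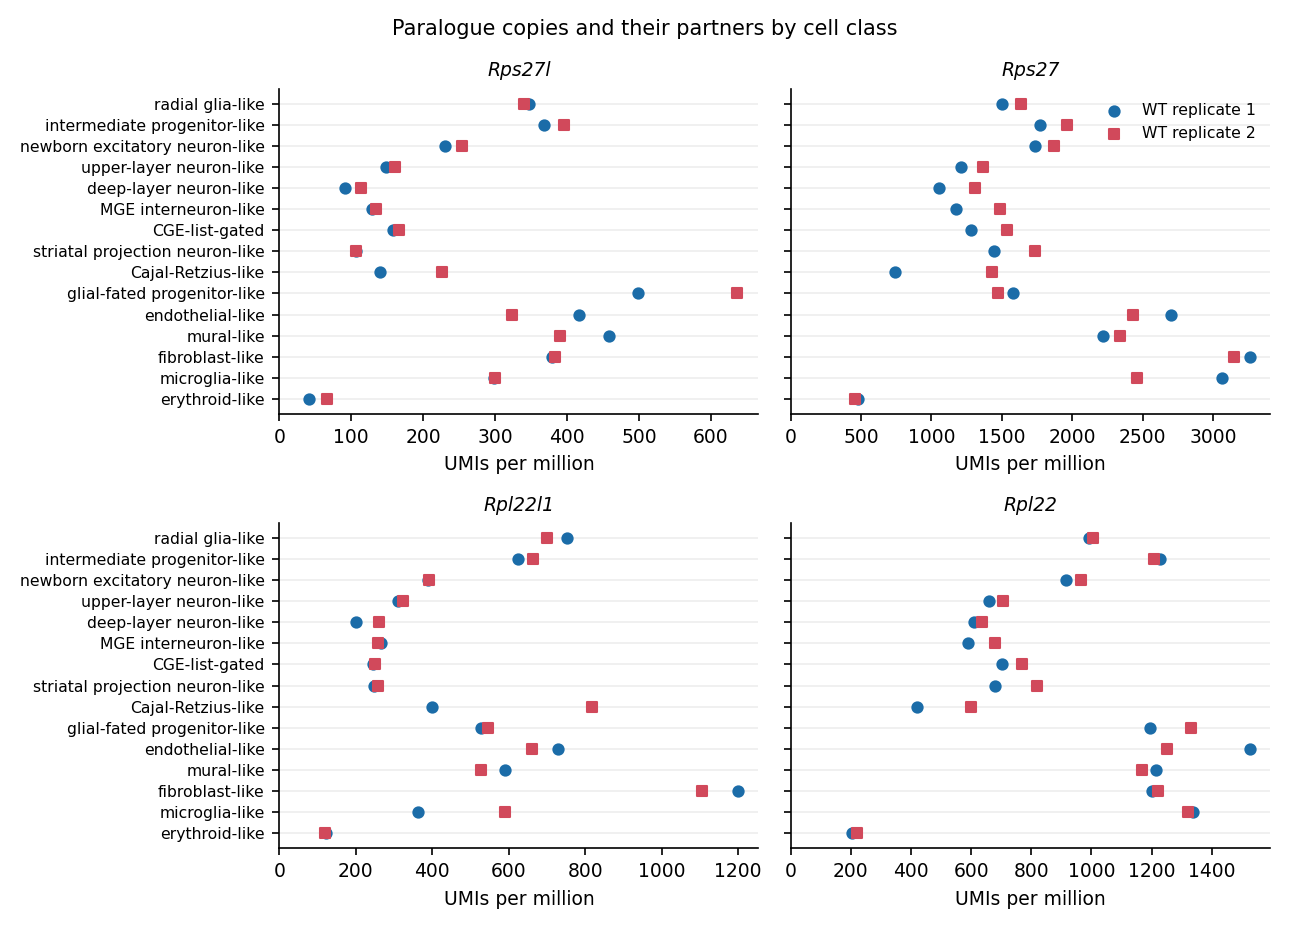
Levels of the paralogue copies *Rps27l* and *Rpl22l1* and of their partners *Rps27* and *Rpl22* (horizontal axes, CPM from 0) in the 15 classes (rows). Blue circles are WT replicate 1 and red squares WT replicate 2; *Rps27l* is at 348 and 340 in RGC-like and at 148 and 160 in upper-layer neuron-like cells, and its partner *Rps27* at 1502 and 1639 and at 1212 and 1368.

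To examine the cell cycle, progenitors with at least 3 distinct cycle markers were compared with those that had none, within each class. Cycling RGC-like cells numbered 186 and 276, against 70 and 142 non-cycling ones, and cycling IPC-like cells 52 and 116, against 72 and 82. In RGC-like cells, 4 of 80 members were higher in the cycling cells and 0 lower, where 18.8% of all genes were called, with medians of 0.09 for members and -0.02 for all genes. *Rps27l* had 386 and 382 against 244 and 274 CPM (log2 difference 0.58 ± 0.12, SE, adjusted p = 0.00138, edgeR). *Rpsa*, which encodes both a ribosomal protein and the laminin receptor, had 2509 and 2409 against 1908 and 1920 (0.38 ± 0.08, adjusted p = 0.00229, edgeR). *Rpl7a* differed by 0.31 ± 0.08 (adjusted p = 0.0132, edgeR). For these 3 members, both cycling values lay above both non-cycling ones.

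In IPC-like cells, 2 of 80 members were higher and 5 lower in the cycling cells, where 16.8% of all genes were called, with medians of -0.04 and 0.00. *Rps27l* (0.43 ± 0.12, SE, adjusted p = 0.0187, edgeR) and *Rpsa* (0.42 ± 0.08, adjusted p = 0.00111, edgeR) were again higher. *Rpsa* had 2626 and 2957 against 2193 and 2109 CPM, and *Rps27l* had 422 and 442 against 304 and 358. Among the lower ones were *Rps9* (-0.29 ± 0.08, adjusted p = 0.0129, edgeR), *Rpl37* (-0.28 ± 0.08, adjusted p = 0.0168), *Rps18* (-0.27 ± 0.09, adjusted p = 0.0376) and *Rps27* (-0.26 ± 0.08, adjusted p = 0.0331). *Rps9*, for example, had 2622 and 2899 against 3497 and 3452 CPM. The higher call of *Rps27l* was lost with DESeq2 (0.41, adjusted p = 0.214), with no doublets removed (0.34, adjusted p = 0.0513, edgeR), after thinning to 1500 UMIs (0.59, adjusted p = 0.128, edgeR) and with each of the other cuts on cells by depth, mitochondrial UMIs or *Malat1*. That of *Rpsa* was lost after thinning (0.27, adjusted p = 0.211, edgeR). The lower calls varied with the setting, from 0 without a filter on low counts and 1 with DESeq2 or without the library block to 24 among cells with under 5% mitochondrial UMIs. A test of the difference between both cycle effects called 0 of 80 members (5 at an unadjusted p under 0.05) and 1.43% of all genes. DESeq2 was not run for it.

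Cycling cells also differed in depth and nuclear signal. Median UMIs were 9725.5 and 6445 in cycling against 5075 and 4570.5 in non-cycling RGC-like cells, and median *Malat1* 0.776% and 1.02% against 1.77% and 1.85%. The part of these in the result was not tested. Among cells with under 1.5% *Malat1*, 31 members were called in RGC-like cells, all lower in the cycling cells, with a median of -0.20, where 9.32% of all genes were called. The higher calls of *Rps27l* (0.19, adjusted p = 0.484, edgeR), *Rpsa* (0.08, adjusted p = 0.672, edgeR) and *Rpl7a* (0.00, adjusted p = 0.990, edgeR) were lost there. *Rps27l* and *Rpl7a* were also not called after thinning to 1500 UMIs (adjusted p = 0.0741 and 0.232, edgeR), nor *Rpl7a* with DESeq2 (adjusted p = 0.176), under 5% mitochondrial UMIs (adjusted p = 0.116, edgeR) or with at least 5000 UMIs (adjusted p = 0.122, edgeR). Without a filter on low counts 25 were called, all higher, where 11.6% of all genes were. The direction of the group over the RGC cycle thus changed with the cells and genes kept.

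Genes around the ribosome were described by 4 other lists, from which the genes named below were chosen after their values were seen. Of 24 translation factors and other mRNAs known for a TOP motif, 4 were higher and 5 lower in RGC-like cells when set against upper-layer neuron-like cells (median -0.07), where 56.2% of all genes were called, and 6 higher and 1 lower in IPC-like cells (median 0.24), where 42.8% were. In the same order, 11 were higher and 3 lower in endothelial-like (0.33, with 45.3% of all genes called), and 8 and 5 in microglia-like cells (-0.05, with 36.3%). In the neuron classes 0 were higher and 3 (deep-layer), 7 (MGE) and 1 (striatal) lower, where 16.9%, 29.5% and 13.8% of all genes were called. RGC-like minus IPC-like cells gave 0 higher and 8 lower, where 23.2% were. The same shares of all genes apply to the lists that follow. *Eef1d*, a subunit of the exchange factor of elongation factor 1, was higher in RGC-like (1.67 ± 0.12), IPC-like (1.47 ± 0.12), endothelial-like (1.49 ± 0.16) and microglia-like cells (1.99 ± 0.18, SE, each called by edgeR). *Eef1a1*, the abundant elongation factor itself, was not called in any comparison.

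Genes of ribosome biogenesis act mainly in the nucleolus. Of 31 tested in the cycle comparison, 7 were higher and 0 lower in cycling RGC-like cells (median 0.46, with 18.8% of all genes called) and 10 higher and 0 lower in cycling IPC-like cells (median 0.57, with 16.8%). *Nop56* and *Nop58*, of the complex that methylates ribosomal RNA, differed by 1.15 ± 0.20 and 0.87 ± 0.18 in RGC-like and by 1.42 ± 0.22 and 1.29 ± 0.20 in IPC-like cells (SE, adjusted p = 0.00031, 0.00135, 9.82e-05 and 9.82e-05, edgeR). *Dkc1*, the pseudouridine synthase, differed by 0.92 ± 0.23 in RGC-like cells (adjusted p = 0.00637, edgeR). Against upper-layer neuron-like cells, 6 of 32 were higher and 6 were lower in the RGC-like class, 2 and 1 in IPC-like, 0 and 1 in deep-layer, 0 and 11 in MGE, 0 and 2 in striatal, 1 and 4 in endothelial-like and 1 and 7 in microglia-like cells. RGC-like minus IPC-like cells gave 2 higher and 1 lower.

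Of 78 mitochondrial ribosomal protein genes, 19 were higher and 12 lower in the RGC-like class against upper-layer neuron-like cells, 18 and 3 in IPC-like, 0 and 12 in deep-layer, 0 and 26 in MGE, 0 and 6 in striatal, 13 and 9 in endothelial-like and 3 and 9 in microglia-like cells. RGC-like minus IPC-like cells gave 2 higher and 7 lower. In cycling cells 6 were higher in the RGC-like and 8 in the IPC-like class, with 0 lower in either. The median difference in microglia-like cells was -0.21 for the mitochondrial and 0.77 for the cytosolic ribosomal protein genes.

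Genes of the MYC family, regulators of ribosome production, were not called higher in the progenitors than in upper-layer neuron-like cells. The progenitors were not tested against the other neuron classes. Set against upper-layer neuron-like cells, *Mycl* was lower in RGC-like cells (log2 difference -2.65 ± 0.19, SE, adjusted p = 1.24e-21, edgeR), as was *Mycn* (-0.52 ± 0.14, adjusted p = 0.00113, edgeR), and all 3 genes were lower in IPC-like cells. Of the 3, 0 were higher and 1 lower in RGC-like minus IPC-like cells and in deep-layer neuron-like cells, and 0 were higher and 2 lower in MGE, striatal and endothelial-like cells. In microglia-like cells 1 was higher, *Myc*, and 2 were lower. Of 2 tested in the cycle comparisons, 0 were called in either class.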

How the data were processed

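Cortical cells of 2 WT E16.5 libraries were profiled by 10x 3' v3.1 single-cell RNA sequencing. The counts deposited by the authors are whole-number UMI counts per gene and barcode, made with Cell Ranger (7.1.0 per the file headers and 7.0.0 per the labels) and the mm10 genome. Intron counting and the annotation release are not given in the sources used here.

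Barcodes with 1500 to 60000 UMIs and under 10% mitochondrial UMIs were kept, and the highest Scrublet scores were removed at a rate of 0.8% per 1000 barcodes (432 and 1111 barcodes), since the automatic threshold marked too few. A cell entered the class with the largest fraction of its markers detected, given at least 3 markers and a lead of 0.1 over the next list. Excitatory neurons could hold at most 1 UMI of *Gad1*, *Gad2*, *Dlx1* and *Dlx5*, and globins were left out of the erythroid gate. Cycling cells had at least 3 of 15 cycle markers and non-cycling cells had 0. Each tested class held at least 20 cells per library.

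UMIs were summed per library and class and tested with edgeR 4.0.16 (quasi-likelihood, TMM factors, library as a block, at least 10 counts in 2 sums), with BH adjustment over all genes tested, in R 4.3.3. The block was used because the numbers mark the library from which both classes came, and the library differences of 15 class pairs correlated over genes at 0.165 to 0.558 (median 0.311). Shares carried Wilson 95% intervals and no test. DESeq2 1.42.0, other factors, filters, gates and depths were alternatives. Named with values were, per comparison, up to 4 called members with the largest rise and up to 4 with the largest fall, in the same direction in both libraries, the 5 members with the highest and the 5 with the lowest level, and each paralogue copy with its partner. Others are said to be chosen after their values were seen, and a few members that meet the rule are not reported here. The procedure was tested on simulated data. Python 3.11.15, scanpy 1.11.5 and blastn 2.17.0 were also used.

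The members and lists were chosen with earlier results of these data known, and the gates were set after inspection of the cells. Labels do not say that the libraries came from separate embryos, so p-values measure only how far class differences varied between these libraries. Total counts were 46398156 and 64324236 UMIs, which limits small classes most.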

Additional observations from a re-analysis of the deposited data

Results flagged for a closer look

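Barcodes that the filters removed also carried ribosomal protein UMIs, and they enter no comparison above. In barcodes within the UMI limits but at or above the mitochondrial limit (1664 in replicate 1 and 958 in replicate 2), the share was 7.08% and 9.14% of all UMIs, or 8.11% and 10.5% of the non-mitochondrial ones. In barcodes under the UMI minimum, whatever their mitochondrial share (1418 and 2351), it was 17.1% and 19.3%. The kept cells had 11.5% and 12.7%. The part of RNA quality and of free RNA in these values was not tested.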

How the results depend on the processing

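Counts of called members and shares of UMIs are given below where an alternative moved a count by over 1.5 times, moved a share by over the spread between libraries, or turned a median, for classes that kept at least 20 cells per library. In each list of counts, RGC, IPC, deep-layer, MGE, striatal, endothelial and microglia stand for the comparison of that class with upper-layer neuron-like cells. For many counts, here and above, the share of all genes called under the same setting is not given. Such a count cannot show whether the members moved apart from the other genes. Of 348 values of named members under alternatives with a test, 295 kept their side of the threshold, 53 lost it and 0 changed sign. The members named by comparison were chosen for the same direction in both libraries. Leaving out either library could therefore not turn them, and this gives no check. The medians over members from the CPM of replicate 1 and of replicate 2 alone differed by over 1.5 times in the striatal (0.054 and 0.20), cycling RGC (0.10 and 0.035) and cycling IPC (-0.17 and -0.021) comparisons, as in the deep-layer and MGE ones.

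DESeq2 called 41 (RGC), 73 (IPC), 2 (RGC minus IPC), 1 (deep-layer), 2 (MGE), 4 (striatal), 2 (cycling RGC) and 2 (cycling IPC). With RLE factors there were 30 (RGC), 1 (RGC minus IPC), 1 (deep-layer) and 14 (cycling IPC). With library totals there were 44 (RGC), 77 (IPC), 2 (RGC minus IPC), 4 (MGE), 2 (striatal) and 16 (cycling IPC). With no filter on low counts there were 4 (RGC), 21 (IPC), 5 (deep-layer), 3 (MGE), 2 (striatal, median -0.17), 25 (cycling RGC) and 2 (cycling IPC). In the fit without the replicate block, which ignores the pairing of classes by library, 1 (deep-layer) and 3 (cycling IPC) were called, and no other count moved by over 1.5 times.

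With at least 4 markers per cell there were 1 (deep-layer), 2 (striatal, median -0.27) and 13 (cycling IPC), and the erythroid share was 3.68%. With no doublets removed there were 1 (deep-layer), 2 (MGE) and 17 (cycling IPC), the striatal median was -0.0098, and shares were 14.2% (RGC), 17.0% (mural) and 19.9% (microglia). Thinned to 1500 UMIs there were 34 (RGC), 77 (IPC), 23 (RGC minus IPC), 8 (deep-layer), 5 (MGE), 0 (striatal), 1 (cycling RGC) and 2 (cycling IPC), with shares of 13.4% (RGC), 16.5% (IPC), 14.4% (glial), 17.6% (endothelial), 22.9% (microglia) and 4.99% (erythroid). Under 5% mitochondrial UMIs there were 56 (RGC), 77 (IPC), 45 (RGC minus IPC), 7 (deep-layer), 33 (MGE), 5 (striatal) and 25 (cycling IPC), a median of -0.016 (cycling RGC), and shares of 16.4% (RGC), 19.1% (IPC), 15.3% (newborn), 12.8% (upper), 12.6% (deep), 11.8% (MGE), 11.9% (CGE) and 14.1% (striatal). Without mitochondrial and globin UMIs in the denominator, shares were 15.3% (RGC), 15.2% (newborn), 16.7% (glial), 18.5% (mural), 23.3% (fibroblast) and 21.6% (erythroid).

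A further 3 alternatives were chosen after seeing the data. With at least 5000 UMIs there were 33 (RGC), 73 (IPC), 14 (RGC minus IPC), 7 (deep-layer), 3 (MGE), 2 (striatal), 9 (cycling RGC, median -0.056) and 24 (cycling IPC), with shares of 15.6% (RGC), 15.3% (newborn), 12.2% (MGE), 14.1% (striatal) and 3.101% (erythroid). Under 1.5% *Malat1* there were 16 (RGC), 2 (RGC minus IPC), 1 (deep-layer, higher, median 0.079), 5 (striatal, all higher), 31 (cycling RGC, all lower, median -0.20) and 22 (cycling IPC). The median of the difference between both cycle effects turned there from 0.13 to -0.052, and there were shares of 16.3% (RGC), 16.6% (newborn), 12.9% (upper), 13.6% (deep), 14.1% (MGE), 13.9% (CGE), 18.4% (striatal) and 22.8% (microglia). Scaled to the ribosomal protein total there were 5 (RGC, median -0.0099), 2 (IPC), 1 (RGC minus IPC, median 0.0011), 0 (deep-layer, median 0.0048), 0 (MGE), 14 (endothelial, median -0.034), 16 (microglia, median -0.067) and 7 (cycling RGC), with medians of -0.014 (striatal) and 0.013 (cycling IPC), since this scaling sets the summed members equal. The cause of the other moves was not tested. DESeq2 was not run for the difference of the cycle effects. Endothelial and microglia comparisons under 5% mitochondrial UMIs, and microglia at 5000 UMIs, could not be fitted for want of cells. Depth limits the classes with the fewest cells most.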

Other observations

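Unassigned cells, 1683 and 3031 in number, had a ribosomal protein share of 10.7% and 12.4%, within the range of the neuron classes.

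The 29 tested members with a pyrimidine run within 5 bases of the annotated start and the 31 without one had similar medians. Against upper-layer neuron-like cells, the median log2 difference was 0.16 and 0.14 in RGC-like, 0.52 and 0.44 in IPC-like, 0.66 and 0.63 in endothelial-like, and 0.85 and 0.77 in microglia-like cells. These are descriptions, with no test.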
